A study of Mus musculus with 4 samples.

Results

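Genes of the proteasome were followed on 4 microarrays of sorted mouse thymic epithelial cells (TECs). The members are all genes whose name on the array is Psm followed by a letter from a to g and a number, without Psmb11. This rule found 47 genes among the 28034 genes or unnamed transcripts on the arrays, measured by 72 probes, with 1 probe for 29 genes and several for 18. By role they are 8 genes of the alpha ring, 4 non-catalytic genes of the beta ring, 3 constitutive and 3 immunoproteasome catalytic genes, 6 ATPase genes and 11 non-ATPase genes of the regulatory particle, 7 chaperone genes, and 5 genes of activators and an inhibitor. The RefSeq accession of 64 of the 72 probes gave the same symbol, and for 8 it was not matched. Psma8, the alpha subunit of the testis, was not well above background on any array. The other 46 genes were well above background on all 4 arrays and were tested.

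The study asked how gene expression in TECs changes when the homeobox gene Meis1 is deleted. All mice carried K14-CreERT2, a recombinase that tamoxifen activates and that the promoter of keratin 14 drives, and all were given 1 mg of tamoxifen on each of 3 days at 3 weeks of age. Meis1-CKO mice had both Meis1 alleles floxed, whereas controls, which the labels call WT, had 1 floxed and 1 normal allele, so the recombinase could act on 1 allele in controls too. CD45- EpCAM+ cells were sorted 4 days after tamoxifen, following magnetic depletion of cells bearing CD45 or Ter119. Of each genotype 2 pools of 6 mice were taken in independent experiments, and the cDNA of each pool, amplified out of 10 ng of RNA, was hybridised to 1 single-colour array.

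The proteasome cuts proteins that carry ubiquitin chains into peptides. Its barrel-shaped core is made of outer alpha rings and inner beta rings, and a regulatory particle with a ring of ATPases unfolds the substrates and feeds them in. Interferon-gamma induces Psmb8, Psmb9 and Psmb10, which take the places of Psmb5, Psmb6 and Psmb7 in newly assembled cores, the immunoproteasome, whose peptides suit MHC class I molecules. Leukocytes, dendritic cells among them, hold much of their proteasome in this form. Cortical TECs hold a further form, in which the product of Psmb11 takes the place of Psmb5 or Psmb8, and whose peptides select CD8 T cells.

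The subunits that exchange are close relatives, so the probes that read them are shown, each with its 60 bases 5′ to 3′. Capitals mark, for Psmb8 and Psmb5, the bases that are identical in the best ungapped alignment of these probes, 31 of 50 aligned bases (62.0%). For Psmb9 and Psmb6 27 of 48 aligned bases were identical, for Psmb10 and Psmb7 23 of 56, and these are printed without capitals. On mm9, the probes lie at chr17:34337771-34337830 on the plus strand (Psmb8), chr14:55233161-55233220 on the minus strand (Psmb5), chr17:34319174-34319233 on the minus strand (Psmb9) and chr11:70341014-70341073 on the plus strand (Psmb6). Those of Psmb10 and Psmb7 lie on the minus strand at chr8:108459677-108459736 and within chr2:38468966-38489385, a span longer than the probe itself. The second Psmb8 probe lies within chr17:34337828-34338152 on the plus strand. The arrays' files give these coordinates and no exon or intron.
Psmb8: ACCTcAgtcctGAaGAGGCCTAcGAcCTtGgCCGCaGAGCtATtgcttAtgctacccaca
Psmb5: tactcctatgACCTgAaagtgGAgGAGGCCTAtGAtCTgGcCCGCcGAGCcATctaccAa
Psmb8, second probe: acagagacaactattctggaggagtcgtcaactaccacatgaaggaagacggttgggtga
Psmb9: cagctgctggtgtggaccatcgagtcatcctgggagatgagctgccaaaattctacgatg
Psmb6: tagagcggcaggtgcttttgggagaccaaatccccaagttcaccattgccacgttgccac
Psmb10: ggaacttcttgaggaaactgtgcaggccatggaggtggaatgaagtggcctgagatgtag
Psmb7: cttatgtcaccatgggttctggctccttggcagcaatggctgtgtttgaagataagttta

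Psmb8 and Psmb9 lie close together in the MHC region, with 18537 bases between their probes on mm9, and Psme1 and Psme2 are neighbours on chromosome 14, with 6673 bases between theirs. The windows from 250 bases before to 50 after the start of Psmb8, Psmb9, Psmb10 and Psme1 are shown because these genes answer to interferon-gamma and did not all read high together here. They come from RefSeq (GRCm38.p6), at chr17:34197945-34198244 on the plus strand for Psmb8, chr17:34187281-34187580 on the minus strand for Psmb9, chr8:105938343-105938642 on the minus strand for Psmb10 and chr14:55578244-55578543 on the plus strand for Psme1. Capitals mark matches, on either strand, to an interferon-stimulated response element or an antioxidant response element (TGANNNNGC), the kind of site that the factors encoded by Nfe2l1 and Nfe2l2 bind.
Psmb8: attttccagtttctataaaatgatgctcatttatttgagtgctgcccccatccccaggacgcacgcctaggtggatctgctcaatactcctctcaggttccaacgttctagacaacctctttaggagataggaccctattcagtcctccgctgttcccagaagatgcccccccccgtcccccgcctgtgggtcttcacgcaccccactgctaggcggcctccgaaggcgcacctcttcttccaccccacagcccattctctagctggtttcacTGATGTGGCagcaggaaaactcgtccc
Psmb9: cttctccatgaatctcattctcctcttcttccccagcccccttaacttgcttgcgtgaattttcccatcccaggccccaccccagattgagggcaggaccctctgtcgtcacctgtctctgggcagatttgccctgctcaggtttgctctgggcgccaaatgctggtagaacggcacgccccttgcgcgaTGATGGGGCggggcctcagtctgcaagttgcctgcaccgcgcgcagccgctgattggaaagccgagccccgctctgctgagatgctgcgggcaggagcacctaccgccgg
Psmb10: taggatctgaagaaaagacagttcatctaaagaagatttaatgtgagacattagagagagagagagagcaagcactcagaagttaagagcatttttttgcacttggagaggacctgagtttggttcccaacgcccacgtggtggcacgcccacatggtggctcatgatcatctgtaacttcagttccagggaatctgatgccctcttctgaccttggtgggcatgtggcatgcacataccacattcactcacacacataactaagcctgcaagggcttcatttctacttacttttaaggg
Psme1: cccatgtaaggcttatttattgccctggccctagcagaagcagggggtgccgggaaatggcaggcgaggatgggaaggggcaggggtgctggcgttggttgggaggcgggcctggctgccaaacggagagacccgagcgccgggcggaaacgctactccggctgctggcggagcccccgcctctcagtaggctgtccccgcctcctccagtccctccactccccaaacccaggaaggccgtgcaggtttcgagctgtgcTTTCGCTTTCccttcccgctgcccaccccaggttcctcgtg

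Psmb8 held an antioxidant-type match at position 23 from its start, Psmb9 an antioxidant-type match at -60, and Psme1 an interferon-stimulated match at 9. None of these 3 matches overlapped another, and the Psmb10 window held none. The Psmb9 window shares 275 bases with that of Tap1, a gene read in the opposite direction whose start lies 226 bases away. The interferon-stimulated element was in 3.44% of all 32851 windows of this length and in 5 of the 42 windows of the 39 proteasome genes with one, and the antioxidant element in 41.3% and in 24 of 42. Matches this common are a description of the letters only.

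Each array had 58.6% to 63.6% of its probe spots well above background and none saturated. Control 1 and Meis1-CKO 1 shared a slide and scan (slide 1), as did control 2 and Meis1-CKO 2 (slide 2), so the within-slide differences are given too. Where 4 values follow each other, they are those of control 1, control 2, Meis1-CKO 1, Meis1-CKO 2, and the value in brackets after them is the log2 difference between the group means, Meis1-CKO minus control, with its standard error (SE). Meis1-CKO 2 stood apart: its log2 signals correlated at 0.86 to 0.88 with the other arrays, which correlated at 0.94 with each other, across genes that are not independent replicates. The 12 TEC markers were above background on all arrays, so the labelled cell type was present, yet their summed signal was 539, 460, 479 and 229 times the 75th percentile of the array. The sum of 14 myeloid and dendritic markers was 28.9, 37.1, 35.2 and 99.2, with 10, 12, 13 and 14 of them above background. That of 14 thymocyte and T cell markers was 60.9, 25.5, 9.61 and 98.9, with 13 above background on each array and Rag2 on none. The leukocyte gene Ptprc, which encodes the CD45 that the sort selected against, read 1.44, 1.19, -0.75 and 5.56 as the log2 of the signal over the 75th percentile, the scale of every level below. In such pools, fewer cells of a type and less RNA per cell cannot be told apart.

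Most proteasome genes kept nearly the same level on the 4 arrays, and none passed the test between the genotypes. The highest and lowest array lay less than 2-fold apart for 40 of the 46 genes, against 45.0% of the 16764 features with 4 values and 50.7% of those above background on all arrays. With normexp background correction, which adds an offset of 50 to every signal, it was 41 of 46 genes against 78.3% of features. Most of the contrast was thus lost in that setting, whose background method and offset were not tested apart. Without Meis1-CKO 2 the range was under 2-fold for 44 of 46 genes and 70.0% of features. The proteasome genes were also brighter, with a median level of 2.64 against -0.27 for all features. The shares and sizes over all features, here and below, were not matched for this. The 6 genes with a wider range were Psmb8, Psmb9, Psme1, Psmd4, Psmd5 and Psmg2. At an adjusted p under 0.05, limma called 0 of 46 proteasome genes higher and 0 lower, and in all features it called 0.00% in each direction. At an unadjusted p under 0.05 it called 0 of 46 on the probe that stood for each gene, against 1.35% of features higher and 1.42% lower. The smallest p among the genes was 0.158, for Psmg2, although a second Psmc2 probe had 0.024 in the limma fit over all probes. The standard errors of the log2 differences ran from 0.42 to 0.71, and the 95% intervals over the 46 genes reached from -2.07 to 2.42.

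Leaving out 1 array at a time changed the calls over all features in 1 case. Without Meis1-CKO 1, limma called 196 features higher and 116 lower, with the lone Meis1-CKO 2 assumed to vary like the controls, but again 0 proteasome genes, and Psmb8 and Psmb9 alone had an unadjusted p under 0.05 (smallest adjusted p = 0.197).

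**Figure D1:**
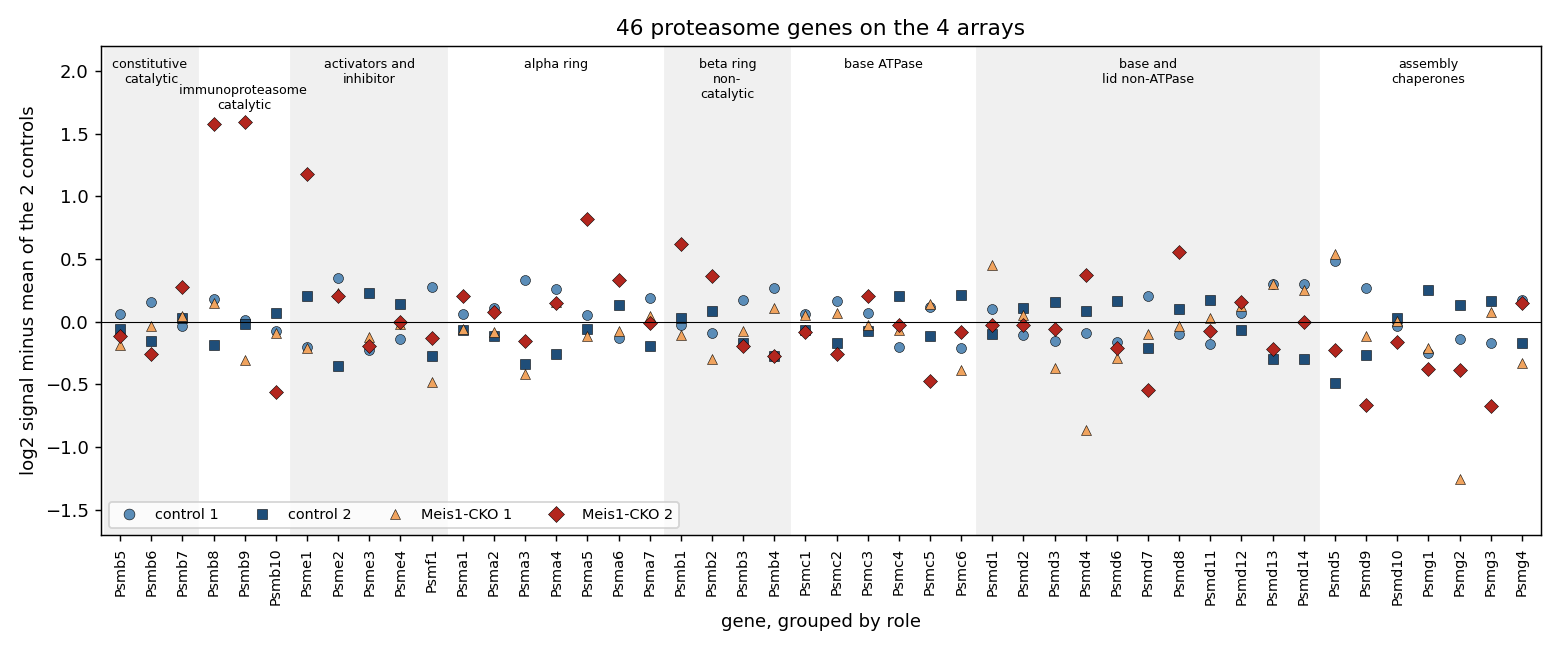
Log2 signal of each of the 46 proteasome genes tested (horizontal axis, grouped by role) on each array, minus the mean of the 2 controls (vertical axis); each point is 1 array. Most points lie within 0.5 of 0, and Meis1-CKO 2 stands above the other arrays for Psmb8, Psmb9 and Psme1.

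As a group the proteasome genes had a median log2 difference of Meis1-CKO minus control of -0.02, against -0.05 for all features, and a median size of 0.16 against 0.34 (0.16 against 0.19 under normexp). Both Meis1-CKO arrays lay above both controls for 2 of 46 genes, Psmb7 and Psmd12, against 11.1% of features. Both lay below for 4, namely Psmb5, Psmb10, Psmd6 and Psmg2, against 14.4%. This second count was 2 with normexp background correction or scaling to the median. With the mean over a gene's probes it was 8, or 17.4% of the genes against 14.7% of features. In none of the 6 did the groups lie 2-fold apart, where 3.35% of features did so upward and 3.94% downward. Without Meis1-CKO 2 the counts were 6 higher and 15 lower, against 29.1% and 31.2%.

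Within slide 1, 16 of 46 proteasome genes were higher in Meis1-CKO, against 50.1% of features, and 30 lower, against 49.9%. Within slide 2, 24 were higher, against 43.7%. Under quantile normalization these counts were 23 within slide 1 and 19 within slide 2, so neither lean was independent of the scaling. Only 7 genes were higher within both slides and 13 lower within both, against 20.4% and 26.5% of features. A 2-fold difference was found within slide 1 for 0 genes upward (8.55% of features) and 1 downward, Psmg2 (5.89%). Within slide 2 it was found for 2 genes upward, Psmb8 and Psmb9 (11.3%, or 9.83% of features above background on all arrays), and 0 downward (17.1%). Under normexp these shares of features were 0.430% and 0.608% within slide 1 and 6.26% and 4.87% within slide 2, Psmg2 was no longer 2-fold lower, and Psme1 joined Psmb8 and Psmb9, as it did with scaling to the median. The same 2 genes were the ones that Meis1-CKO 2 held at least 2-fold above each of the other arrays, as it did 6.51% of features. It held 0 genes at least 2-fold below each of them, against 9.47% of features.

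**Figure D2:**
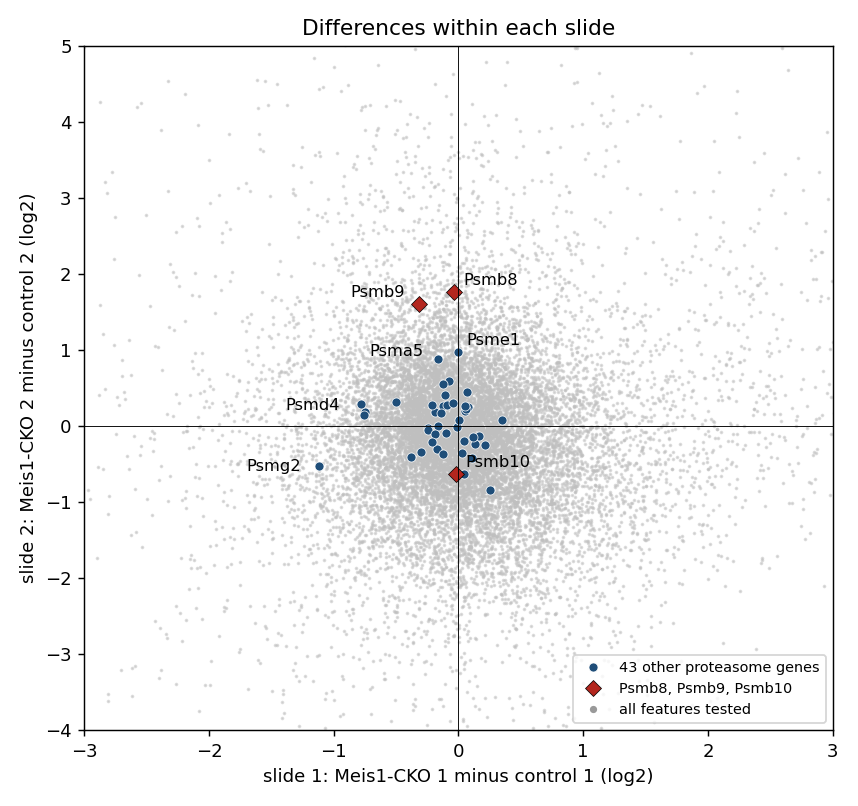
Log2 difference of Meis1-CKO minus control within slide 1 (horizontal axis) and within slide 2 (vertical axis) for 43 proteasome genes (blue), the 3 immunoproteasome catalytic genes (red) and all 16764 features with 4 values (grey), of which 232 lie outside the axes. Psmb8 and Psmb9 lie at 1.76 and 1.60 on slide 2 and near or below 0 on slide 1, while Psmg2 lies lowest on slide 1.

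The immunoproteasome catalytic genes did not read high or low together: Psmb8 and Psmb9 were high in Meis1-CKO 2 alone, and Psmb10 was lowest there. Psmb8, whose product carries the chymotrypsin-like site of the immunoproteasome, read 3.68, 3.31, 3.64 and 5.07. The groups overlapped, since Meis1-CKO 1 lay between the controls. Its log2 difference was 0.86 (SE 0.61, 95% interval -0.67 to 2.39, n = 2 pools each, limma adjusted p = 1), made up of -0.04 within slide 1 and 1.76, or 3.39-fold, within slide 2. The second Psmb8 probe read 2.09, 1.94, 2.09 and 3.63, a difference of 0.85 with 0.01 and 1.69 within the slides, so both probes showed the same pattern.

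Psmb9, which encodes the subunit that replaces the caspase-like one, read 4.96 and 4.93 in the controls and 4.64 and 6.53 in Meis1-CKO 1 and 2. The Meis1-CKO arrays thus lay on either side of the controls, with -0.32 within slide 1 and 1.60, or 3.04-fold, within slide 2. The difference over both was 0.64 (SE 0.71, 95% interval -1.13 to 2.42, limma adjusted p = 1), and -0.31 without Meis1-CKO 2. Psmb10, whose product carries the trypsin-like site, read 3.95 and 4.10 in the controls and 3.93 and 3.47 in Meis1-CKO 1 and 2. Both Meis1-CKO arrays lay below both controls, the first by only -0.02 within its slide and the second by -0.63. Its difference was -0.32 (SE 0.45, limma adjusted p = 1).

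Summed over the 3 genes, the signal was 59.4, 57.5, 52.7 and 137 times the 75th percentile. The myeloid and dendritic sum and the thymocyte and T cell sum given above were highest on the same array. The second of these sums includes the leukocyte gene Ptprc. Of its 13 markers tested, Ptprc, Cd3e, Cd4, Cd8a, Cd8b1, Lck and Tcf7 were highest in Meis1-CKO 2. The others, Cd3d, Cd3g, Rag1, Dntt, Ptcra and Bcl11b, were highest in control 1. Within slide 2, 11 of the 13 myeloid and dendritic markers tested were higher in Meis1-CKO, against 43.7% of features, with a median difference of 1.49. They ran from 4.97 for the dendritic integrin gene Itgax to -0.07 for C1qb and -0.49 for Lyz2, the macrophage lysozyme gene, and Itgam was highest in Meis1-CKO 1. Of the 13 thymocyte and T cell markers tested, 11 were also higher within slide 2, with a median of 1.48. Within slide 1 their median was -2.13, with 10 at least 2-fold lower, while that of the myeloid and dendritic markers was 0.05. The TEC sum was lowest in Meis1-CKO 2, and within slide 2 the 12 markers had a median of -0.94, with 1 higher. They ran from -3.33 for Psmb11, through -0.61 for Epcam, the marker of the sort, to 3.63 for Cd83. B cell markers summed to between 1.13 and 1.70 on all arrays, erythroid markers to 9.88, 4.02, 5.67 and 2.33, and endothelial and mesenchymal markers to between 5.06 and 6.29. That last sum covers opposite differences within slide 2, from 2.48 for the endothelial gene Pecam1 to -1.91 for the collagen gene Col1a2, and Kdr was above background in Meis1-CKO 2 alone. The part of these other cells in the result was not tested.

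**Figure D3:**
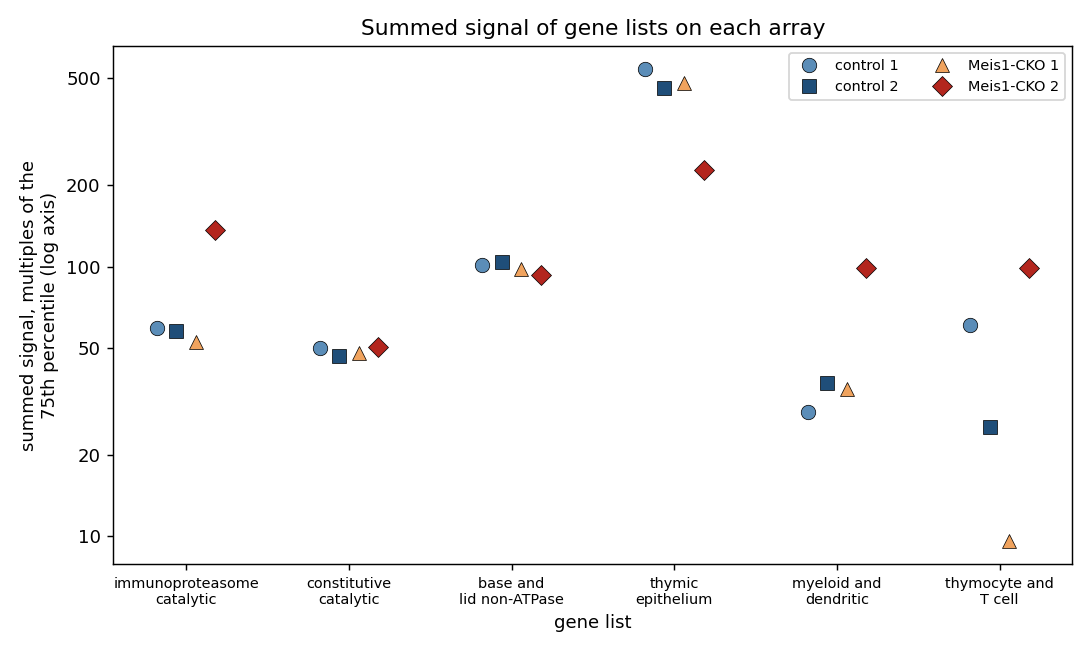
Summed signal of each gene list on each array, in multiples of the 75th percentile of that array (vertical log axis); each point is 1 array. In Meis1-CKO 2 the immunoproteasome catalytic, myeloid and thymocyte lists are at their highest (137, 99.2 and 98.9) and the thymic epithelium list at its lowest (229), while the constitutive catalytic list stays between 46.8 and 50.3. The thymocyte list includes the leukocyte gene Ptprc.

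The constitutive catalytic genes held almost level. Psmb5, for the chymotrypsin-like site, read 2.49, 2.37, 2.24 and 2.31, a difference of -0.15 (SE 0.42). Psmb6, for the caspase-like site, read 4.32, 4.01, 4.13 and 3.91 (-0.14, SE 0.44). Psmb7, for the trypsin-like site, read 4.61, 4.67, 4.68 and 4.92 (0.16, SE 0.43). The first and last of these did not overlap between groups, yet by margins under the standard error, and each had a limma adjusted p of 1. On slide 2, where Psmb8 and Psmb9 differed by 1.76 and 1.60, these genes differed by -0.06, -0.10 and 0.25.

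Set against the subunit it replaces on the same array, Psmb8 was higher relative to Psmb5 in both Meis1-CKO arrays than in either control. The Psmb8 minus Psmb5 log2 value differed by 1.01 between groups, 0.21 within slide 1 and 1.82 within slide 2. Psmb8 itself was not higher within slide 1, where it differed by -0.04 and Psmb5 by -0.24. The Psmb9 minus Psmb6 value differed by 0.79, with -0.13 and 1.70 within the slides, and by -0.27 without Meis1-CKO 2. For Psmb10 minus Psmb7 it was -0.49, with -0.10 and -0.88. Two-sided exact permutation tests over the 4 arrays gave p = 0.333, 1 and 0.333 (0.5, 1 and 0.5 adjusted over the 3 pairs), and 0.333 is the smallest p that 6 regroupings allow, so the design could not reach 0.05. The ratios of Psmb8 and of Psmb10 to their partners thus differed in opposite directions on slide 2.

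**Figure D4:**
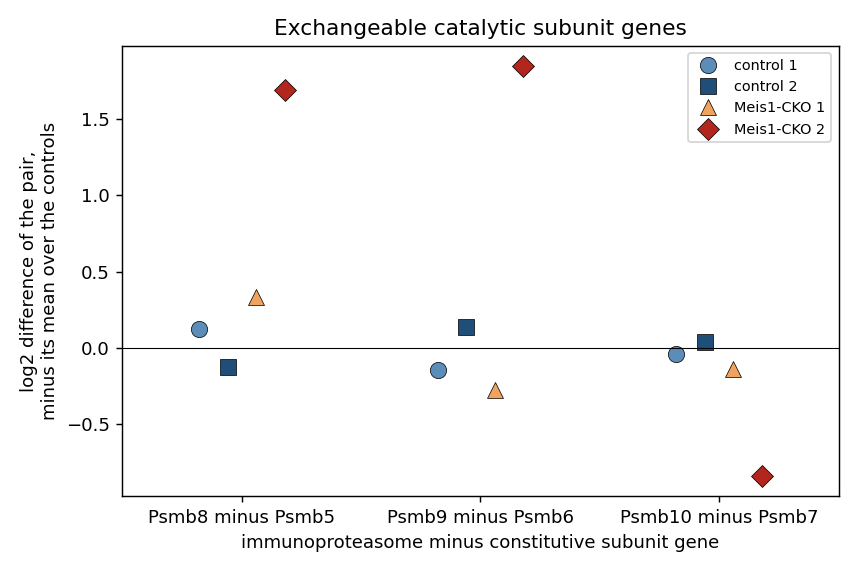
Log2 value of each immunoproteasome catalytic gene minus that of the constitutive gene it replaces (horizontal axis), relative to the mean of the controls (vertical axis); each point is 1 array. Meis1-CKO 2 lies at 1.69 and 1.85 for the Psmb8 and Psmb9 pairs and at -0.84 for the Psmb10 pair, while the other arrays lie between -0.27 and 0.33.

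Of the activators, Psme1 was highest in Meis1-CKO 2, while the probes of its partner Psme2 disagreed on the order of the arrays. Psme1 and Psme2 encode the alpha and beta subunits of a ring that interferon-gamma induces and that caps the core without ATPases. Psme1 read 5.66 and 6.07 in the controls and 5.65 and 7.04 in Meis1-CKO 1 and 2, a difference of 0.48 (SE 0.61, limma adjusted p = 1), with -0.01 and 0.97, or 1.96-fold, within the slides and -0.21 without Meis1-CKO 2. Psme2 read 4.72 and 4.02 in the controls and 4.60 and 4.58 in Meis1-CKO 1 and 2, so on this probe both Meis1-CKO arrays lay between the controls, with -0.12 and 0.56 within the slides. Its second probe read 4.15 and 3.93 in the controls and 4.28 and 4.41 in Meis1-CKO 1 and 2, so there both Meis1-CKO arrays lay above both controls, by 0.13 and 0.48 within the slides.

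On the probes that stood for them, the other regulators of the core's gate showed no separation of the groups. Psme3, the gamma activator of the nucleus, read 0.91, 1.36, 1.01 and 0.94 (difference -0.16). Psme4, the large single-chain activator, read 2.44, 2.72, 2.56 and 2.58 (-0.01), while its 3 other probes gave differences from -0.67 to 0.35 and so disagreed in sign. On the Psme4 probes at -0.67 and 0.35 the groups did not overlap, in opposite directions. Psmf1, a proteasome inhibitor, read -0.97, -1.52, -1.73 and -1.37 (-0.30), with its other probes at -0.01 and 0.02. On the probes that stood for these genes, standard errors were 0.44, 0.43 and 0.47, larger than each difference.

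In the alpha ring, whose subunits form the gate of the core, the 7 genes tested had a median difference of 0.07, and none passed the test. On slide 2 all 7 were higher in Meis1-CKO, by 0.18 to 0.88, against 43.7% of features. On slide 1 only 1 was, Psma6, against 50.1%. The counts turned to 3 of 7 on slide 2 and 2 of 7 on slide 1 under quantile normalization, where their median on slide 2 was -0.02 in place of 0.20. Psma5 read 4.77, 4.66, 4.60 and 5.54, highest in Meis1-CKO 2, with a difference of 0.36 (SE 0.51) and of -0.11 without that array. Psma3 read 1.10, 0.43, 0.35 and 0.61 (-0.29) and Psma4 2.12, 1.60, 2.02 and 2.01 (0.15). In both of these the controls lay farther apart than the group means.

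The non-catalytic beta genes had a median of -0.03 over 4 genes, which was 0.030 under normexp. Psmb1, whose product sits beside that of Psmb5 in the ring, read 1.35, 1.40, 1.27 and 1.99 (0.26, SE 0.47), highest in Meis1-CKO 2. Psmb3 read 3.56, 3.22, 3.32 and 3.19 (-0.13), and Psmb4 6.03, 5.48, 5.87 and 5.48 (-0.08). On these probes the order was by slide rather than by genotype, with both slide 1 arrays above both slide 2 arrays. On the other Psmb3 probe Meis1-CKO 1 was lowest and Meis1-CKO 2 highest, with -0.44 and 0.30 within the slides.

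The ATPase genes of the base encode the ring that unfolds substrates. On the probes that stood for them, differences ran from -0.24 to 0.09 over 6 genes, with a median of -0.07. Psmc6 read 2.75, 3.17, 2.57 and 2.88 (-0.24, SE 0.45) and Psmc5 3.92, 3.69, 3.95 and 3.34 (-0.16, SE 0.47). On the second Psmc6 probe, at 2.67, 2.37, 2.24 and 1.65 (-0.57, SE 0.47), both Meis1-CKO arrays lay below both controls. Second probes gave -1.64 for Psmc2, -0.16 for Psmc5 and 0.20 for Psmc4. Psmc3 read 1.32, 1.17, 1.22 and 1.45 (0.09). Psmc1 differed by -0.01 and Psmc4 by -0.05, and the probe that stood for Psmc2 by -0.09. On slide 2, the slide of the high Psmb8 and Psmb9 signals, 5 of the 6 genes were lower in Meis1-CKO (4 of 6 with scaling to the median), against 56.3% of features, and none differed by more than -0.36 downward.

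The 11 non-ATPase genes of base and lid, whose products bind and trim ubiquitin chains or scaffold the particle, had a median of 0.02 and ranged from -0.32 to 0.26. Psmd7 read 4.91, 4.50, 4.61 and 4.16 (-0.32, SE 0.46), lower within both slides by -0.30 and -0.34. Of its other probes, 1 was also lower within both slides, by -0.35 and -0.27, and 1 gave -0.63 and 0.52. Psmd8 read -0.47, -0.26, -0.40 and 0.19 (0.26, SE 0.46). Psmd6 read 2.07, 2.39, 1.94 and 2.02 (-0.25, SE 0.43) and Psmd12 2.31, 2.17, 2.36 and 2.40 (0.14). In this pair the groups did not overlap, but 1 other Psmd12 probe gave -0.52 and another -0.17. Psmd4, a ubiquitin receptor, read 1.20, 1.38, 0.42 and 1.66, low in Meis1-CKO 1 and high in Meis1-CKO 2. Its difference was -0.25, and 0.37 without Meis1-CKO 1. Psmd14, the deubiquitinase of the lid, differed by 0.13, but by -0.18 without control 2.

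Among the chaperones that help build the particle, Psmg2 had the largest lower difference of all members on the probe that stood for each gene. Psmg2, which pairs with Psmg1 to assemble the alpha ring, read 0.11 and 0.38 in the controls and -1.01 and -0.14 in Meis1-CKO 1 and 2. Both Meis1-CKO arrays lay below both controls, by -1.12 within slide 1 and -0.52 within slide 2. The difference was -0.82 (SE 0.50, 95% interval -2.07 to 0.43, limma adjusted p = 1), with -1.25 without Meis1-CKO 2, -0.39 without Meis1-CKO 1 and -0.51 under normexp. Its second probe gave -0.88, with -1.48 and -0.29, so both probes were lower within both slides, although in that probe the controls (-0.14 and -1.34) were themselves far apart.

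Its partner Psmg1 differed by 0.04 within slide 1 and -0.63 within slide 2. Psmg3, of the second pair of alpha-ring chaperones, read -1.26, -0.92, -1.01 and -1.76 (-0.29, SE 0.49). Psmd9, a chaperone of the ATPase ring, read -0.09, -0.62, -0.48 and -1.02 (-0.39, SE 0.48), and its other probe gave 0.10. Of the 7 chaperone genes 1 had a difference above 0, also under each other scaling, against 45.3% of features. Their median was -0.29 against -0.05 for all features, but -0.14 with the mean over probes, -0.13 without control 1 and -0.12 without Meis1-CKO 2. None passed the test. Psmd5, another chaperone of the ATPase ring, read 1.41, 0.43, 1.46 and 0.69, high in both slide 1 arrays.

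Genes around the proteasome were read for comparison. Of 27 tested proteasome-associated factors, none passed the test, 16 had a difference above 0, against 45.3% of features, and the median was 0.09. Nfe2l1, a factor that raises proteasome gene transcription when activity is short, read 4.12, 3.89, 4.01 and 3.57 (-0.21, SE 0.45). Nfe2l2, the related factor of the oxidant response, read 1.73, 1.63, 1.98 and 2.82 (0.72, SE 0.49), higher in both Meis1-CKO arrays than in both controls, by 0.24 and 1.19 within the slides. Pomp, the maturation chaperone of the core, read 5.55, 5.45, 5.20 and 6.11 (0.16, SE 0.50), highest in Meis1-CKO 2 as Psmb8 and Psmb9 were.

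Ubqln4, which encodes a shuttle for ubiquitinated proteins, had the largest difference of these factors. It read -3.23 and -2.46 in the controls and -2.26 and -1.19 in Meis1-CKO 1 and 2, higher by 0.97 and 1.27 within the slides (1.12, SE 0.58, limma adjusted p = 1). The groups did not overlap, but all its levels lay below the median level of -0.27 over all features. Control 1 was near the floor of its array, where the lowest signal above background was 8.53 and the 75th percentile 93.2. Ngly1 and Ddi2, which encode a glycanase and a protease that activate the Nfe2l1 protein, differed by 0.47 (SE 0.48) and 0.33 (SE 0.46), each higher within both slides.

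The list of 30 genes of MHC class I peptide supply and the interferon-gamma response read higher on the same slide as Psmb8 and Psmb9. Its median difference was -0.12 within slide 1, where 11 were higher in Meis1-CKO, against 50.1% of features. Within slide 2 the median was 0.90, and 25 were higher (22 under quantile normalization), against 43.7% of features. No gene of the list passed the test. Tap1, the peptide transporter gene beside Psmb9, read -1.28, -1.62, -2.05 and -0.08, with -0.77 and 1.54 within the slides. Irf1, a factor that interferon-gamma induces and that drives Psmb9, read 3.92, 4.12, 3.73 and 4.16, with -0.19 and 0.04. The sign of the Irf1 difference depended on the probe, at -0.07 here and 0.19 with the mean over its 2 probes.

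The 4 members of this list with the smallest p are given next, from a list built around the interferon-gamma response. Ifit2 read -0.65, -0.46, -0.27 and 4.33 (2.59, SE 1.45), Ifit1 -0.76, -0.55, -0.34 and 1.03 (1.00, SE 0.59). Jak2, a kinase of the interferon-gamma receptor, read -0.21, -0.14, -0.07 and 2.15 (1.21, SE 0.79), and Irf8, a factor of interferon and dendritic cell programmes, 1.82, 1.89, 2.25 and 3.41 (0.97, SE 0.55). In all 4 the Meis1-CKO arrays lay above the controls, narrowly in Meis1-CKO 1, and each had a limma adjusted p of 1. Since they were chosen by p, their separation follows in part from the choice. Over the whole list both Meis1-CKO arrays lay above both controls for 6 of 30 genes, against 11.1% of features. Of these 4, Ifit2 passed the test without Meis1-CKO 1 (4.88), and its difference was 0.29 without Meis1-CKO 2. The sums of the myeloid and dendritic markers and of the thymocyte and T cell markers, Ptprc among them, were highest in Meis1-CKO 2 as well. The part of these cells in these values was not tested.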

How the data were processed

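Each pool was measured on 1 single-colour (Cy3) Agilent array. The deposited scanner files hold linear intensity values, which, per the file headers, Agilent Feature Extraction 9.5.3.1 background-subtracted within each array. The deposited table of log2 values names no processing step. Against the scanner values its column differences had a slope of 1, and each probe was centred on a median of 0 over the arrays.

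Levels are the log2 of the processed signal over the 75th percentile of the same array, without 1639 control spots and 63 to 78 outlier spots per array. A probe entered the test if both arrays of a group had it well above background, which 24266 did, and the brightest such probe by mean stood for its gene, which left 16773 features. Groups were compared on all 4 arrays with limma 3.58.1 in R 4.3.3, with Benjamini-Hochberg adjustment over every feature, a threshold of 0.05 and 5.52 degrees of freedom in all. The number of arrays limits the precision. Nothing says whether same-numbered pools share a day or litter. Their deviations correlated at 0.133, so the replicate number, which is also the slide, served as a block in an alternative only. Simulated data with known changes were used to check this test.

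The members, role groups, lists and tests were chosen with earlier results of these data known. Named whatever their values were the catalytic, activator and inhibitor genes, Nfe2l1, Pomp, Tap1 and Irf1. Up to 3 genes with the largest difference were named from each other role group, up to 4 with the smallest p from each list of other genes, and further genes where a count or sentence turned on them, chosen after their values were seen. Alternatives were normexp background correction (offset 50), quantile and median scaling, the deposited table, other filters, the mean over probes, the block, and leaving out each array. Leaving out Meis1-CKO 2 for the counts of ranges and separated groups was added after seeing the data. Symbols were updated through RefSeq (GRCm38.p6), and probe coordinates are the array files' (mm9). Protein sequences were not used here, and a few items are not reported here.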

Additional observations from a re-analysis of the deposited data

How the results depend on the processing

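No proteasome gene passed the limma test under any alternative. With the replicate block, 0 features were called higher and 0 lower, 660 had an unadjusted p under 0.05, the smallest proteasome gene p was 0.134, and no call changed. Leaving out 1 array, between 0 and 196 features were called higher and between 0 and 116 lower, the highest counts being without Meis1-CKO 1. With no filter on dim probes Psma8, below background on every array, had an unadjusted p of 0.0127. Between settings, the median over all features ranged from -0.16 (no filter) to -0.003.

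The median of the non-ATPase genes was -0.060 under quantile normalization, and that of activators and inhibitor -0.10 with the mean over probes. Proteasome genes lower without overlap numbered 2 under normexp, 2 under median scaling and 8 with the mean over probes, against 14.6%, 13.7% and 14.7% of features. Without Meis1-CKO 2 they numbered 15, and 6 were higher, against 31.2% and 29.1% of features. These 2 counts ask less than the others, since only Meis1-CKO 1 has to lie outside the controls. Psme4 was at 0.045 under normexp and 0.014 under median scaling, and Irf1 at 0.19 with the mean over probes. The cause of the other shifts in this paragraph was not tested.

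Without 1 array, medians ranged from -0.083 to 0.043 for all proteasome genes, -0.11 to 0.15 for the alpha ring, -0.093 to 0.11 for non-catalytic beta genes, -0.21 to 0.011 for constitutive and -0.092 to 1.58 for immunoproteasome catalytic genes, -0.083 to 0.014 for ATPases, -0.092 to 0.033 for non-ATPases, -0.38 to -0.12 for chaperones and -0.12 to 0.071 for activators and inhibitor. The Psmb9 minus Psmb6 difference ranged from -0.27 to 1.85, the end below 0 being without Meis1-CKO 2. Signs also turned without Meis1-CKO 2 for Psmb9 (-0.31 to 1.59), Psme1 (-0.21 to 1.18), Psma5 (-0.11 to 0.82), Psmb1 (-0.10 to 0.62), Psmc5 (-0.47 to 0.14), Psmc3 (-0.024 to 0.21), Psmd8 (-0.031 to 0.56), Psmg3 (-0.67 to 0.082), Nfe2l1 (-0.43 to 0.0055), Pomp (-0.30 to 0.61) and Tap1 (-0.60 to 1.37), and without this array or control 1 for Psmb4 (-0.35 to 0.19), Psma6 (-0.077 to 0.33), Psmc1 (-0.082 to 0.053) and Psmc2 (-0.26 to 0.077). They turned without control 1 for Psmb6 (-0.30 to 0.011), Psma3 (-0.62 to 0.050) and Psmb3 (-0.30 to 0.037), and without control 2 for Psme2 (-0.13 to 0.57), Psme3 (-0.38 to 0.071) Psma4 (-0.11 to 0.41) and Psmc4 (-0.25 to 0.16). Psme4 (-0.15 to 0.13), Irf1 (-0.29 to 0.14), Psmd14 (-0.18 to 0.43) and Psmd5 (-0.33 to 0.64) turned without control 2 or Meis1-CKO 1, and Psmd4 (-0.87 to 0.37) without Meis1-CKO 1. Ifit2 (0.29 to 4.88) passed the test without Meis1-CKO 1.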

Other observations

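Within a gene the probes did not always read alike. The second Psmc2 probe, chosen after its values were seen, read 0.08 and -0.33 in the controls and -2.26 and -1.26 in Meis1-CKO 1 and 2. That is a log2 difference of -1.64, with -2.34 and -0.93 within the slides, whereas the probe that stood for Psmc2 gave -0.09. On the second probe both Meis1-CKO arrays lay below both controls. Its limma unadjusted p was 0.024 and did not pass after adjustment over all probes tested. Of the 17 proteasome genes with several tested probes, 11 had differences of 1 sign over all their probes. The exceptions were Psmc4, Psmd12, Psmd2, Psmd9, Psme4 and Psmf1, and the spread between probes was widest for Psmc2 (1.54), Psme4 (1.02) and Psmd12 (0.66).

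Ubb, a ubiquitin gene, read 7.57, 7.54, 7.41 and 7.92, and the fusion gene Rps27a differed by -0.01. Vcp, the segregase that extracts ubiquitinated proteins, differed by 0.38 within slide 1 and -0.19 within slide 2, and Uba1, the ubiquitin-activating enzyme, by 0.07 and -0.59. None of these passed the limma test.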
